A study of Mus musculus with 80 samples.

Results

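The blood of mice bled on day 3 after 2.8 Gy of acute irradiation (3 libraries) was compared with the blood of sham-irradiated mice of the acute arm bled on the same day (6 libraries). These 9 libraries were taken from 80 libraries in 14 groups by their treatment, mode and day labels, without use of a measured value. The 9 mice were female and of the C57Bl/6 genotype, and the labels name no transgene, deletion or drug in either group. The irradiated mice received the dose at 0.73 Gy per min. Each sample is described as a mouse, so replicates were taken as animals; their ages and the cages or days that groups may share are not given in the sources used here. Replicate numbers below are names in the order of deposit and pair no animals. Blood was drawn from the heart into an RNA-preserving solution, globin transcripts were cleared from the RNA, ribosomal RNA was depleted and stranded libraries of total RNA were sequenced.

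Whole blood holds red cells, platelets and white cells, and its RNA is a mixture weighted by how much RNA each kind of cell carries. Newly released red cells, the reticulocytes, still hold the transcripts for haemoglobin, haem synthesis and the red cell membrane, which mature red cells lose. Ionising radiation breaks DNA and activates the transcription factor p53, which induces genes of cell-cycle arrest and cell death. Dividing red cell precursors in the marrow and resting B cells in the blood are among the most radiosensitive cells of the body, while NK cells, monocytes and platelets are known to withstand such doses better in the short term. In bulk blood, fewer cells of a type and less RNA per cell cannot be told apart, and this holds for every cell type marker below.

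Column totals were 23.2 to 25.6 M in the irradiated libraries and 25.1 to 31.0 M in the shams. The deposited values of irradiated libraries exceeded those of shams by 2.02-fold at the median gene detected everywhere (1.02 on the log2 scale), so each column was divided by its median ratio to the gene averages, and levels are given in these rescaled units. The irradiated libraries had more genes above 0, 24589 to 27535 against 16684 to 22783 in the shams. Irradiated replicates correlated with each other at Pearson r of 0.947 to 0.978 on log2 values, shams at 0.860 to 0.949, and libraries of different groups at 0.820 to 0.921. Xist was at least 10022 and the Y-linked Ddx3y at most 9.35 in these 9 libraries, as the label of female mice requires. B cell, T cell, neutrophil, platelet and red cell transcripts were present at high levels, as in blood. The 11 heart muscle markers listed, 8 of them tested, summed to 92.7 to 128 in irradiated libraries and 43.4 to 259 in shams. The skeletal muscle markers summed to at most 108.

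Irradiated replicates 1 and 2 carried a strong signal of hepatocyte transcripts, which do not belong to blood cells. Alb, which encodes serum albumin, stood at 237628, 251146 and 11771 in irradiated replicates 1 to 3. In shams its lowest, median and highest values were 16.1, 230 and 21192. The 25 hepatocyte transcripts together took 2.69%, 3.00% and 0.185% of the signal of the irradiated libraries and 0.00139 to 0.135% of that of the shams. Results that move with this signal are therefore given also with irradiated replicates 1 and 2 left out, which leaves irradiated replicate 3 alone against the 6 shams, and with the mean log2 level of the hepatocyte transcripts of each library as a covariate.

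**Figure D1:**
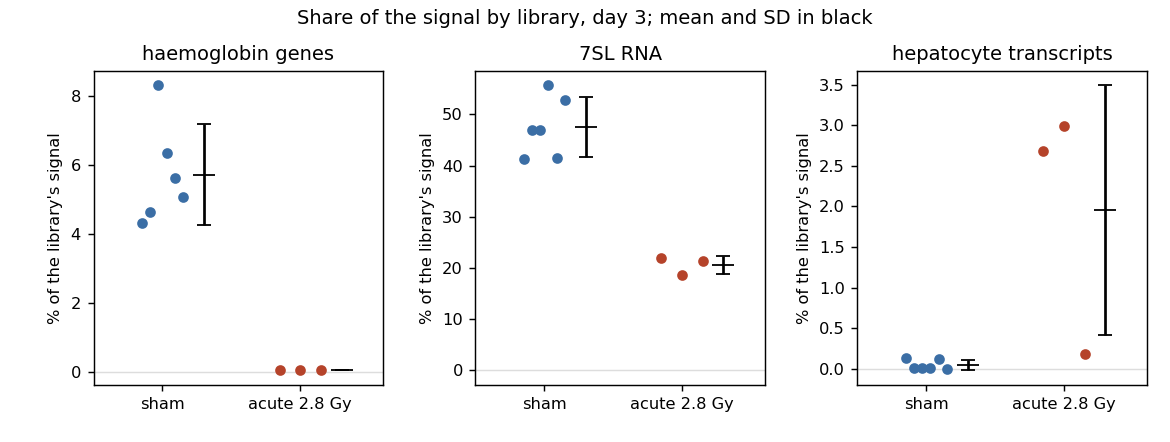
Percent of each library's total signal held by haemoglobin genes, 7SL RNA and hepatocyte transcripts; each point is a library (6 sham in blue, 3 irradiated in red) and the black marks are the group mean and SD. Haemoglobin fell from 4.32 to 8.33% in shams to 0.0523 to 0.0674%, 7SL RNA from 41.3 to 55.7% to 18.7 to 21.9%, and irradiated replicates 1 and 2 alone held over 2% of hepatocyte signal.

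A few gene families held large shares of the signal. The 7SL RNA of the signal recognition particle, listed under the symbols Rn7s1 and Rn7s2 with identical values, took 47.5% ± 5.87 (SD, n = 6) of the signal in shams and 20.6% ± 1.73 (SD, n = 3) after irradiation. Haemoglobin genes, measured after globin clearing, took 5.72% ± 1.47 (SD, n = 6) in shams and 0.0599% ± 0.00757 (SD, n = 3) after irradiation. Mitochondrial ribosomal RNA took 2.46% ± 0.254 (SD, n = 3) after irradiation against 1.63% ± 0.297 (SD, n = 6). None of these 3 shares overlapped between the groups, and the exact two-sided permutation test gave p = 0.0119 for each, the smallest p that 84 arrangements allow (adjusted p = 0.0179 over 6 shares). Genes of mitochondrially encoded mRNAs held 0.405% ± 0.146 (SD, n = 3) against 0.235% ± 0.0663 (SD, n = 6; exact permutation adjusted p = 0.0286). Ribosomal protein genes held 1.26% ± 0.0939 (SD, n = 3) against 1.08% ± 0.122 (SD, n = 6), a difference that did not pass (exact permutation adjusted p = 0.0833). With 7SL RNA left out of the total, the mitochondrial differences no longer passed (exact permutation adjusted p = 0.976 for the ribosomal RNA).

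Among the 20 genes of highest mean level in the irradiated libraries were Thbs1, Itgb3, Itga2b, Tubb1, Ppbp, Plek, Flna, Myh9, Actb and Tmsb4x. Most of these are known for platelets or for the actin cytoskeleton. The rest were Rn7s1, Rn7s2, mt-Rnr2, Rn7sk, Rpph1, Gm26917, Alb, Lyz2, B2m and Tsc22d1. Alb, high in irradiated replicates 1 and 2, held on average 0.886% of the signal after irradiation and 0.0148% in shams. Thbs1 alone held 1.02% of the signal after irradiation and 0.05001% in shams. Actb held 1.25% and 0.276%. No gene of red cells was among these 20.

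Of 21124 genes tested, 4337 (20.5%) passed the threshold of an adjusted p under 0.05, 2494 of them higher after irradiation (11.8%) and 1843 lower (8.72%). Values of the groups did not overlap for 4762 genes (22.5%). These shares of all genes are the ones to set beside the list counts below. Changes were large: 584 genes were over 8-fold higher and 281 over 8-fold lower. The median log2 difference of all genes tested was 0.30, and quantile normalization moved it to -0.07, so small differences depend on the scaling. Values as deposited lie 1.02 higher on the log2 scale in the irradiated libraries, and falls smaller than that are positive differences there. With irradiated replicate 3 alone, 610 genes were higher and 778 lower, and all 610 and 774 of these had the same call with all libraries. With the hepatocyte covariate, 1499 of the 2494 genes that rose and 1492 of the 1843 that fell kept their call.

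**Figure D2:**
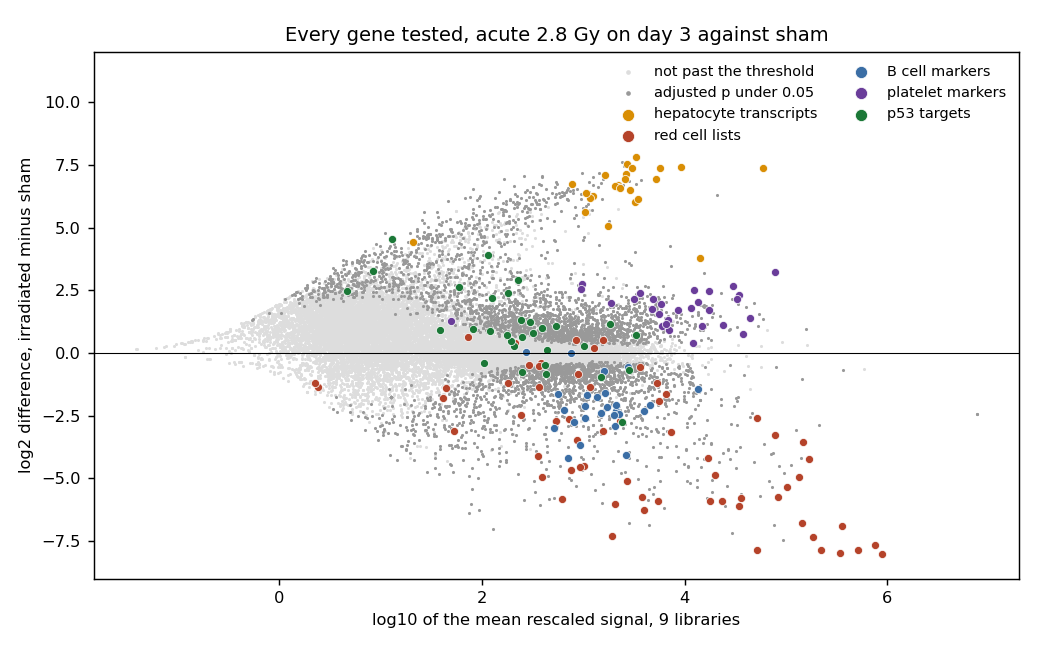
Log2 difference between irradiated and sham libraries against the log10 of the mean rescaled signal over the 9 libraries, for each gene tested that was above 0 in any of them; dark grey genes passed an adjusted p of 0.05. Red cell genes lie at the bottom right, down to -8.01, hepatocyte transcripts at the top, and platelet markers between 0.40 and 3.23.

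Transcripts of young red cells were the most reduced of all. Alas2, the enzyme that starts haem synthesis in erythroid cells (chrX:150547375-150570638, GRCm38), stood at 7117, 4514 and 4074 in the irradiated libraries. Its lowest, median and highest sham values were 1026610, 1363780 and 1796690, so the groups lay more than 100-fold apart. The log2 difference was -8.01 ± 0.40 (SE; adjusted p = 3.82e-27), the largest fall of any ranked gene. Bpgm, which makes the 2,3-bisphosphoglycerate that loosens oxygen from haemoglobin, stood at 1727, 1317 and 1222 against 237687 to 455005 in shams (log2 difference -7.86 ± 0.42). Both had as large a fall with irradiated replicate 3 alone, at -8.33 and -8.06.

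Of 9 haemoglobin genes tested, 6 fell and none rose, with a median of -7.29. Hbb-bs, an adult beta globin gene (chr7:103826534-103828096), stood at 2313, 1661 and 1892 against a lowest, median and highest sham value of 383861, 457821 and 763161. It fell by 7.99 on the log2 scale. Hbb-bt, Hba-a1, Hba-a2 and the theta-like genes Hbq1a and Hbq1b fell as well, with log2 differences of -7.88, -7.85, -7.66, -7.29 and -6.02, and no value of these 6 genes overlapped between the groups. Reads of Hba-a1 and Hba-a2, of Hbb-bs and Hbb-bt and of Hbq1a and Hbq1b can be split between near-identical copies, so the values of the copies within each pair are uncertain. The embryonic genes Hbb-y, Hbb-bh1 and Hba-x had levels of at most 88.3 in any of the 9 libraries and differences of -1.80, -1.37 and -1.19 that did not pass, and Hbb-bh2 was at 0 throughout. Globin clearing acts on these transcripts before sequencing, so their levels are those left after it. Alas2 and Bpgm are not globin genes.

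Promoter windows of RefSeq (build GRCm38.p6, 250 bases before to 50 after the start) are shown for a globin gene and for Alas2, because both stand for the group that fell most. The 5 letters GATAA, the core that factors of the GATA family bind, were searched on both strands and are in capitals, as TTATC where they lie on the other strand. They occurred in 7 of 9 haemoglobin promoters (77.8%) and in 25.4% of all 32851 promoters of this length. In the haem synthesis, red cell membrane and late reticulocyte lists the share was 30.0%, 33.3% and 25.0%. The window of Hbb-bs lies at chr7:103827879-103828178 on the minus strand, that of Alas2 at chrX:150547167-150547466 on the plus strand.
Hbb-bs: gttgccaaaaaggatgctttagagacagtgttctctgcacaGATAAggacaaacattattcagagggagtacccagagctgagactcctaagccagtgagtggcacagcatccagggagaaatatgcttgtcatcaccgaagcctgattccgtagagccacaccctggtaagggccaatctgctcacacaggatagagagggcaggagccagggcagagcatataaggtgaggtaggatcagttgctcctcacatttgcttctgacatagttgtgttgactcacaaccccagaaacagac
Alas2: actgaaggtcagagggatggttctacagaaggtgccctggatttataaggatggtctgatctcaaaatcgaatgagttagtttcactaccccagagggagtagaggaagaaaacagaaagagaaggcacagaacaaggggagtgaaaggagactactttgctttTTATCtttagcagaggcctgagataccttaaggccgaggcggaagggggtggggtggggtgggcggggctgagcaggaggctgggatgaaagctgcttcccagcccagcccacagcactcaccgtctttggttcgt
The match begins 209 bases before the start in Hbb-bs and 86 bases before it in Alas2.

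Of the 11 enzymes and carriers of haem synthesis tested, 8 fell and none rose, with a median of -1.36. Slc25a37, the mitochondrial iron importer of erythroid cells, stood at 2542, 1917 and 1740 against 55671 to 247262 in shams (-5.75 ± 0.51). Abcb10, a mitochondrial transporter that stabilises it, fell by 2.64. Of 19 genes of the red cell membrane and blood groups, 15 fell and none rose, and the median was -4.51. Slc4a1, the anion exchanger band 3 (chr11:102348824-102366203), stood at 1350, 1087 and 535 against a lowest, median and highest of 33012, 53723 and 73532, without overlap (-5.79 ± 0.51, adjusted p = 7.07e-15). Tspan33, Add2 and Epb42, a tetraspanin and 2 proteins of the membrane skeleton, fell by 6.28, 5.82 and 5.75.

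Of 23 transcripts typical of late reticulocytes, 20 fell and none rose, with a median of -3.26. Ube2l6, an enzyme of ISG15 conjugation that is abundant in maturing red cells, fell by 7.33, and Tent5c, an RNA polymerase that extends tails of mRNA, by 6.91. Other genes outside these lists fell as far, among them Fam220a (-7.46), Cdr2 (-7.17) and Aldh3b2 (-7.01). In irradiated replicate 3 alone, 14 of the red cell membrane genes and 18 of the late reticulocyte genes passed, all lower.

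Transcription factors of the red cell lineage divided. Hemgn and Lmo2 fell by 4.84 and 4.67, Bcl11a by 2.11 and Klf1 by 1.99. Gata1 stood at 1037, 911 and 975 against 422 to 558 in shams, with no overlap, and rose (1.01 ± 0.31, adjusted p = 0.0118). Tal1 and Nfe2, factors that megakaryocytes share with red cells, rose by 1.43 and 1.17 on the log2 scale. Platelet markers were higher in the same libraries, and their part in these rises was not tested. With irradiated replicate 3 alone Tal1 passed, while Gata1 and Nfe2 did not (adjusted p = 0.265 and 0.0534), and Gata1 also did not pass without irradiated replicate 1.

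**Figure D3:**
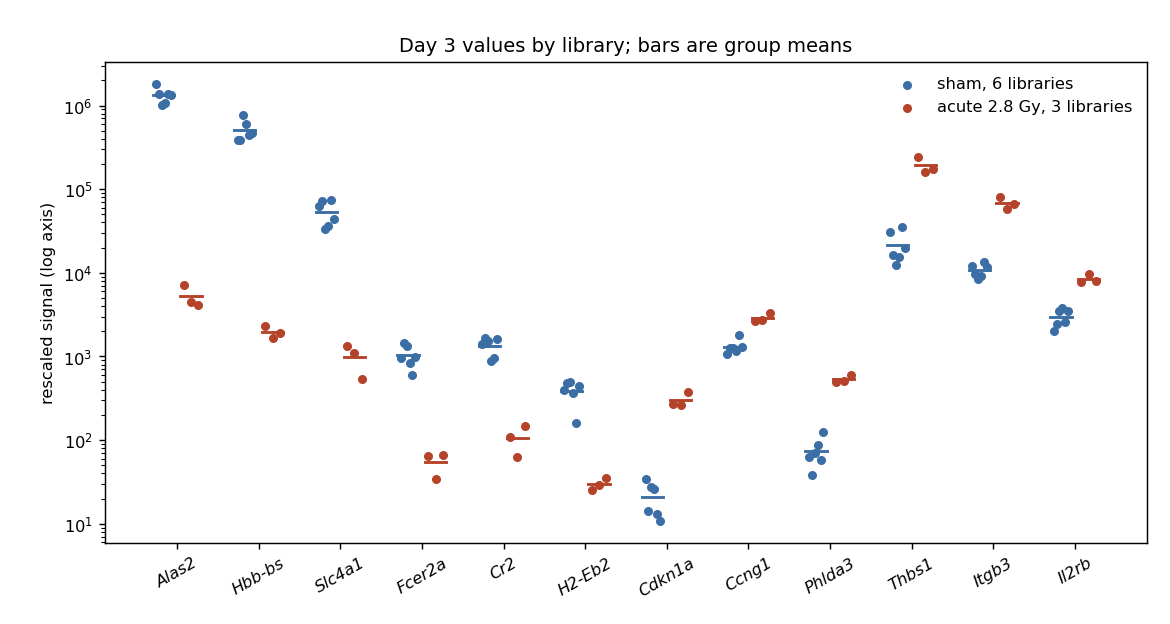
Rescaled signal of 12 genes in each library on a log axis, shams in blue and irradiated in red, with bars at the group means. The groups do not overlap for any of these genes: Alas2, Hbb-bs, Slc4a1, Fcer2a, Cr2 and H2-Eb2 were lower in the 3 irradiated libraries, and Cdkn1a, Ccng1, Phlda3, Thbs1, Itgb3 and Il2rb higher.

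Of the 31 p53 targets tested, 15 rose and 5 fell (20 of 31 past the threshold, against 20.5% of all genes), and the median was 0.89 against 0.30 for all genes. Cdkn1a, the p21 inhibitor of cyclin-dependent kinases (chr17:29090976-29100727), stood at 271, 260 and 380 in the irradiated libraries. Its lowest, median and highest sham values were 10.8, 19.99 and 34.0, so all 3 irradiated libraries lay above the shams. It rose by 3.89 ± 0.70 on the log2 scale (adjusted p = 1.13e-05), and by 4.23 with irradiated replicate 3 alone.

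Trp53cor1, the lincRNA-p21 next to Cdkn1a (chr17:29057430-29079179), stood at 25.7, 31.9 and 54.5, while 4 of 6 shams were listed at 0 and the highest was 4.26. It rose by 4.54 ± 0.84 on the log2(value + 1) scale, which understates changes at such low levels. Phlda3, which holds back the kinase Akt, stood at 491, 503 and 601 against 38.8, 66.8 and 124 (lowest, median and highest sham) and rose by 2.92 ± 0.32. Zmat3, a zinc finger protein that binds RNA, stood at 431, 372 and 361 against 48.9 to 138 and rose by 2.40 ± 0.36. Ccng1, cyclin G1, stood at 2677, 2693 and 3269 against 1079 to 1802 and rose by 1.15 ± 0.14. None of these groups of values overlapped.

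Among p53 targets of cell death, Bax, which opens the mitochondrial outer membrane, stood at 571, 571 and 625 against 196 to 364 in shams and rose by 1.01 ± 0.16 (adjusted p = 4.29e-07). Bbc3, known as Puma, rose by 1.30 and Aen, a nuclease of apoptosis, by 0.80. Eda2r, a receptor of the TNF family, stood at 29.7, 25.5 and 9.28 against at most 5.78 in shams and rose by 3.25 ± 0.94. Fas and Tnfrsf10b, both death receptors, had differences of 0.46 and 0.93 that did not pass. Trp53inp1 rose by 0.70, Sesn2 by 0.71, Ei24 by 1.06 and Rps27l by 1.22. Sesn2 did not pass after quantile normalization, with the compared groups fitted alone, or without irradiated replicate 2 or sham replicate 3. Aen did not pass after quantile normalization, with the compared groups fitted alone, or with any irradiated library left out. Dcxr and Ddit4l, which rose by 2.21 and 2.48, were highest in irradiated replicates 1 and 2, where the hepatocyte share was highest; Dcxr stood at 287, 303 and 137. With the hepatocyte covariate, Aen, Eda2r, Ei24, Rps27l, Dcxr and Ddit4l no longer passed (adjusted p = 0.051, 0.069, 0.077, 0.059, 0.14 and 0.30).

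Mdm2, the ubiquitin ligase that degrades p53 and is itself a p53 target, did not pass, at 1052, 1200 and 1118 against 685 to 1242 (0.26 ± 0.16, adjusted p = 0.256). Plk2, Plk3, Polk, Xpc, Rrm2b, Tigar and Perp also did not pass, with differences of 0.89, 0.97, 0.63, 0.12, -0.47, -0.39 and 2.61. Perp was high in irradiated replicates 1 and 2 at 241 and 197, and at 11.4 in replicate 3 it lay within the sham range of 3.78 to 34.4.

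The 5 targets that fell were Gadd45a, Sesn1, Btg2, Ppm1d and Ddb2. Gadd45a, a stress protein of growth arrest, stood at 487, 532 and 429 against a lowest, median and highest sham value of 1998, 3363 and 4814, with no overlap (-2.74 ± 0.43, adjusted p = 5.55e-07). Sesn1, a sestrin, fell by 0.98, Ppm1d, the phosphatase that switches p53 signalling off, by 0.84, Ddb2, which recognises DNA lesions, by 0.78 and Btg2, which restrains proliferation, by 0.67. In the values as deposited, Sesn1, Ppm1d, Ddb2 and Btg2 were at 0.04, 0.17, 0.23 and 0.35, with no call. With the hepatocyte covariate, Btg2 and Ddb2 did not pass (adjusted p = 0.071 and 0.068). With irradiated replicate 3 alone, 6 p53 targets were higher and 2 lower.

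Promoter windows of 4 of these targets are shown, with matches to the 10-base p53 half-site in capitals. The half-site reads the same on both strands and is only a part of the element that p53 binds. The set is shown because Cdkn1a, Ccng1 and Bax rose and Gadd45a, which also holds a match, fell. RefSeq windows were found for 22 of the 31 targets, and 12 of these 22 genes held a match, in 13 of 29 windows (44.8%), against 8.36% of all 32851 windows. Among targets that rose 8 of 17 windows held it, among those that fell 3 of 5, and among those that did not pass 2 of 7. Cdkn1a has 2 windows, and the first, at chr17:29090729-29091028 on the plus strand, is shown. Ccng1 lies at chr11:40755237-40755536, Bax at chr7:45466849-45467148 and Gadd45a at chr6:67037358-67037657, all on the minus strand.
Cdkn1a: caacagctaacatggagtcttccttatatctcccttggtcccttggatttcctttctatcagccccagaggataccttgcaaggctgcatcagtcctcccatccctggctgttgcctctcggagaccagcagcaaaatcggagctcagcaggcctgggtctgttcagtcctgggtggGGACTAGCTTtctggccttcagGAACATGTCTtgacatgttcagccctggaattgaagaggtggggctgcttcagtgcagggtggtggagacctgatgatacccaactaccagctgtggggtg
Ccng1: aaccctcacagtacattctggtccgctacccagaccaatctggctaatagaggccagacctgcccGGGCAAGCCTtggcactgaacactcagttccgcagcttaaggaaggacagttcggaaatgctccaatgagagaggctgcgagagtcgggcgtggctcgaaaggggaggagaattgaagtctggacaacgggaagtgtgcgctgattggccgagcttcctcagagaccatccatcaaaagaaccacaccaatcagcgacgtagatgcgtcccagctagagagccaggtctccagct
Bax: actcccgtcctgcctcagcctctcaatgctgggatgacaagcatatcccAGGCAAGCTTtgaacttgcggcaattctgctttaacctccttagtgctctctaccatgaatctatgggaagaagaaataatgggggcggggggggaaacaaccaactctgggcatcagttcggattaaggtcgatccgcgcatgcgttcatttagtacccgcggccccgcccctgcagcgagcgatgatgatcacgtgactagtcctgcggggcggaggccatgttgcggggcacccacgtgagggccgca
Gadd45a: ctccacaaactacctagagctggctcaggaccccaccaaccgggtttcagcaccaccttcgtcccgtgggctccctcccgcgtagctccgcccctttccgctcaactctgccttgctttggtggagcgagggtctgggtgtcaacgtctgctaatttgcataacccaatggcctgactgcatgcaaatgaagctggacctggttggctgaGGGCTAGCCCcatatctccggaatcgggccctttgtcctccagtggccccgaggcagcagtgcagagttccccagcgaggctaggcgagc
Matches begin 73 and 51 bases before the start in Cdkn1a, 185 in Ccng1, 201 in Bax and 40 in Gadd45a. A match is a run of letters and does not show that p53 was bound there in these cells, and Phlda3, which rose by 2.92, held none in its window.

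Outside the p53 targets, the BCL2 family was mixed, with 2 of 15 genes higher and 2 lower. The shares of all genes were 11.8% higher and 8.72% lower, close to these counts. Bid, which links death receptors to mitochondria, rose by 1.18, and the survival gene Bcl2 by 0.62. The call of Bcl2 was lost without irradiated replicate 2, while Bid passed with each library left out. Bcl2l1, which encodes Bcl-xL and is abundant in red cell precursors, stood at 3750, 3352 and 3537 against 15003 to 32504 and fell by 2.67 ± 0.44. Of 36 genes of DNA repair, 10 fell and none rose, with a median of -0.40. The count was 2 with irradiated replicate 3 alone, and in the values as deposited 2 fell and 18 rose, with a median of 0.61. Bard1, the partner of Brca1, stood at 208, 179 and 210 against 1353 to 2047 (-2.98 ± 0.36). Parp1, the sensor of strand breaks, stood at 844, 863 and 840 against 1530 to 2217 and fell by 1.10, though it was at -0.09 with no call in the values as deposited. Fancd2 of the Fanconi pathway fell by 1.98 (adjusted p = 0.0694 with irradiated replicate 3 alone).

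Of 26 B cell markers tested, 23 fell and none rose, with a median of -2.21. Fcer2a, the low-affinity IgE receptor CD23 of mature follicular B cells (chr8:3681737-3694175), stood at 65.1, 33.9 and 65.9. Its lowest, median and highest sham values were 597, 978 and 1438, with no overlap, and it fell by 4.20 ± 0.31 (adjusted p = 4.94e-19). Ighd, the IgD heavy chain of naive B cells, stood at 213, 202 and 238 against 2441, 3698 and 5687 and fell by 4.09 ± 0.26. Cr2, the complement receptor CD21, stood at 110, 63.3 and 146 against 881, 1483 and 1644 and fell by 3.68 ± 0.34. Pax5, the factor that fixes B cell identity, and Bank1, a signalling adaptor, fell by 2.39 and 2.06. Fcer2a, Ighd and Cr2 were at -3.88, -3.96 and -3.15 on the log2 scale with irradiated replicate 3 alone, and 20 of the 26 markers still passed there. Vpreb3, a chaperone of the immature B cell receptor, stood at 17.2, 10.4 and 8.15 against 82.8 to 390.

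Among the antibody constant regions other than Ighd, the heavy chain Ighm and the light chains passed. Ighm, counted among the B cell markers, was at -1.45 (adjusted p = 8.19e-08), and at -0.43 with no call in the values as deposited. Igkc, the kappa light chain, stood at 1832, 1310 and 2115 against 5781 to 9516 and fell by 2.07 ± 0.20, and the lambda chains Iglc2 and Iglc1, whose sequences are alike, fell by 2.06 and 1.96. Of the 16 plasma cell and immunoglobulin genes, 5 fell and none rose (3 with irradiated replicate 3 alone); the heavy chains Igha, Ighg1, Ighg2b, Ighg2c and Ighg3 did not pass. Of 11 MHC class II genes, which present antigen on B cells, dendritic cells and monocytes, all 11 fell, with a median of -1.99. The groups did not overlap for any of them, against 22.5% of all genes without overlap and 8.72% lower. H2-Ob and H2-Oa, the chains of H2-O that B cells use to restrain peptide exchange, fell by 2.98 and 2.95, and H2-Eb2 by 3.59. H2-Eb2 stood at 25.7, 29.1 and 34.8 against a lowest, median and highest of 160, 422 and 495.

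Of 15 MHC class I genes, which show peptides to cytotoxic T cells, 4 rose and none fell. H2-D1 stood at 41800, 37818 and 42838 against 19555 to 23310 and rose by 0.95 ± 0.13, and B2m, the shared light chain, stood at 80869, 73832 and 86157 against 31894 to 47814 and rose by 1.06 ± 0.17.

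Of 25 T cell markers, 1 rose and 2 fell, with a median of 0.14, while 11.8% of all genes rose and 8.72% fell. The genes that fell were the CD8 chains: Cd8b1 stood at 277, 295 and 182 against 502, 787 and 1309 (lowest, median and highest sham) and fell by 1.75 ± 0.34, and Cd8a fell by 0.99. Zap70, the kinase of the T cell receptor, rose by 0.69, a call that was lost under 11 alternatives, among them quantile normalization and leaving out any irradiated library (adjusted p up to 0.404). Of 12 genes of naive T cells, 6 fell and 2 rose; after quantile normalization 3 fell and 2 rose, and in the values as deposited 1 fell and 6 rose. Ccr7, the receptor that brings naive cells into lymph nodes, stood at 776, 792 and 473 against 1557 to 3030 and fell by 1.82 ± 0.25, and Dapl1 fell by 1.83. S1pr1, which lets lymphocytes leave lymph nodes, fell by 0.91. In the values as deposited, Cd8a and S1pr1 were at 0.03 and 0.11, with no call. Actn1, which rose by 1.802, is an actin crosslinker that platelets also express. Among 11 genes of regulatory T cells 2 rose, neither of them with irradiated replicate 3 alone, and Il2ra, the high-affinity IL-2 receptor chain, stood at 158, 284 and 233 against 31.3 to 119.

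NK and cytotoxic genes were higher, with 18 of 24 past the threshold and none lower, and a median of 1.27. Tbx21, the factor T-bet (chr11:97098071-97115331), stood at 885, 837 and 1026 against a lowest, median and highest sham value of 78.3, 237 and 454, with no overlap, and rose by 2.02 ± 0.33 (adjusted p = 1.22e-06). Il2rb, the IL-2 and IL-15 receptor chain, stood at 7793, 9674 and 8024 against 2006 to 3816 and rose by 1.55 ± 0.31. Gzmb, which encodes granzyme B, rose by 1.76, and Ncr1, the NK receptor NKp46, by 1.62. With irradiated replicate 3 alone the median was 1.09 and 2 of the 24 genes passed; with the hepatocyte covariate 20 passed.

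Platelet markers rose almost throughout, 26 of 29 past the threshold, none lower and 28 without overlap of the groups, with a median of 1.79. Among all genes, 11.8% rose and 22.5% were without overlap. Thbs1, the adhesive alpha granule protein thrombospondin (chr2:118111876-118127133), stood at 241222, 160115 and 176011. Its lowest, median and highest sham values were 12322, 18174 and 35091, and it rose by 3.23 ± 0.40 (adjusted p = 1.16e-09). Itgb3, the beta chain of the fibrinogen receptor, stood at 80417, 58744 and 66748 against 8399 to 13489 and rose by 2.68 ± 0.32. Tubb1, the tubulin of the platelet ring, rose by 2.14, and P2rx1, an ATP-gated channel, by 2.15. Against irradiated replicate 3 alone 23 of the 29 still passed, with a median of 1.91. The scaling fixes the typical gene, so these values are relative: platelet transcripts made up more of the RNA, and the values do not count platelets.

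Myeloid genes changed less uniformly. Of all genes tested, 20.5% passed the threshold, 11.8% higher and 8.72% lower. The counts past the threshold for mature neutrophils, patrolling monocytes and eosinophils lie near the 20.5%. Of 24 markers of mature neutrophils 5 rose and 1 fell, with a median of 0.51. Mmp8, the collagenase of neutrophil granules, stood at 844, 1923 and 530 against 200 to 439, and Fpr1, the formyl peptide receptor, at 255, 465 and 259 against 78.6 to 154. Neither group of values overlapped, and the log2 differences were 1.56 ± 0.45 and 1.504 ± 0.37. Both passed with all libraries and had an adjusted p of 0.75 and 0.26 with irradiated replicate 3 alone. Of 15 genes of classical monocytes 8 rose and 2 fell; with irradiated replicate 3 alone 2 rose and 1 fell. Ccr2, the receptor that brings them out of the marrow, stood at 3914, 3784 and 5183 against 1500 to 2240 and rose by 1.17 ± 0.28, and F13a1, coagulation factor XIII, which platelets also hold, rose by 1.87. Of 15 genes of patrolling monocytes 3 fell and 1 rose. Cd36, a scavenger receptor also present on red cell precursors, stood at 1933, 1509 and 2700 against 6952 to 15103 and fell by 2.42. Of 15 dendritic cell genes 5 fell and 1 rose (1 fell with irradiated replicate 3 alone), among them Siglech of plasmacytoid cells at 17.1, 10.3 and 12.6 against 36.8 to 265 (-2.74 ± 0.90), and Ly6d at -2.55. Siglech did not pass under 7 alternatives, among them leaving out any irradiated library (adjusted p up to 0.323). Of 11 eosinophil genes 2 fell, neither of them with irradiated replicate 3 alone, and Ccr3, the eotaxin receptor, fell by 1.84.

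**Figure D4:**
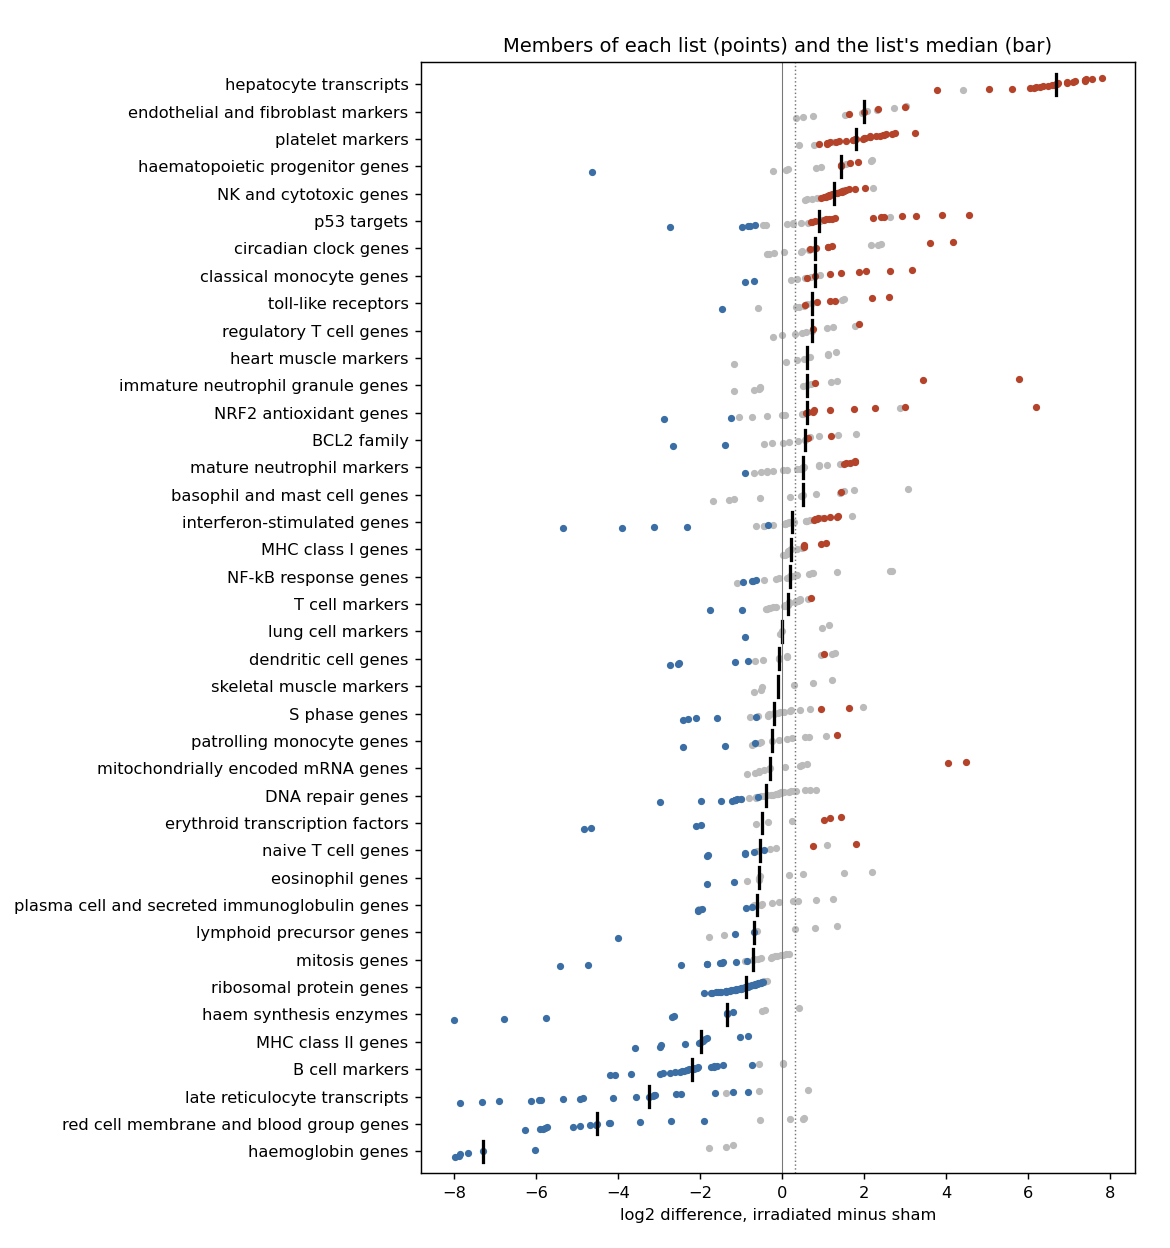
Log2 difference of each tested member of the 40 gene lists, with the list's median as a bar; red members rose, blue members fell and grey members did not pass an adjusted p of 0.05, and the dotted line is the median of all genes, 0.30. Lists are ordered by their medians, from haemoglobin genes at -7.29 to hepatocyte transcripts at 6.66.

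Interferon-stimulated genes did not move as a block: 8 of 30 rose and 5 fell, with a median of 0.23. Rsad2, the antiviral enzyme viperin, stood at 2913, 2505 and 2325 against a lowest, median and highest of 73508, 108200 and 142835 and fell by 5.34 ± 0.43. Isg15, a ubiquitin-like modifier, stood at 156, 152 and 95.7 against 1751 to 2534 and fell by 3.91, Irf7, the master factor of the interferon response, fell by 3.13 and Oas3 by 2.33. Over the same libraries Ifit3, Ifit2 and Zbp1 rose by 1.17, 0.86 and 0.86. None of the 8 rises passed with irradiated replicate 3 alone, where 4 of the 5 falls did, and Ifit3 also did not pass when the compared groups were fitted alone. Of the 20 NF-kB response genes, 4 fell and none rose, 1 of them with irradiated replicate 3 alone. Nfkb2, the p100 subunit, stood at 554, 527 and 637 against 897 to 1444 and fell by 0.95, Relb, its partner, fell by 0.74 and Birc3, an inhibitor of apoptosis, by 0.72. In the values as deposited these genes were at 0.06, 0.28 and 0.30, with no call.

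Proliferation genes fell in part. Of 24 mitosis genes 10 fell and none rose, and Ube2c, the enzyme that feeds the anaphase-promoting complex, stood at 157, 141 and 156 against a lowest, median and highest of 4313, 6682 and 8304 (-5.42 ± 0.45). Nusap1, a spindle protein, fell by 4.73, Bub1b, of the spindle checkpoint, by 2.47 and Kif23, a kinesin of cell division, by 1.84. Among 22 genes of S phase 5 fell and 2 rose: Cdc6, Pola1 and Ccne2 fell by 2.41, 2.29 and 2.11, while Dut, which keeps uracil out of DNA, stood at 1061, 994 and 1152 against 263 to 427 and rose by 1.61 ± 0.22. Of the mitosis genes 4 fell with irradiated replicate 3 alone. The median of the mitosis list was -0.71, and 0.30 in the values as deposited. Of 13 genes of haematopoietic progenitors 4 rose and 1 fell. Slamf1 and Angpt1 rose by 1.84 and 1.66, and Runx1t1 stood at 16.5, 31.3 and 27.6 against 482 to 759 and fell by 4.64 ± 0.38.

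Cytosolic ribosomal protein genes were lower as a whole: 50 of 56 fell and none rose, with differences from -1.92 to -0.36. All 56 were without overlap of the groups. Among all genes, 8.72% fell and 22.5% were without overlap. The count that fell was 38 with the hepatocyte covariate, 38 after quantile normalization and 23 with irradiated replicate 3 alone. Rplp0, of the ribosomal stalk, stood at 11530, 11331 and 11932 against 39438 to 51095 and fell by 1.92 ± 0.25, and Rplp2, Rps29 and Rps9 fell by 1.73, 1.72 and 1.37. The list's median of -0.89 was -0.83 after quantile normalization and 0.13 in the values as deposited, where 14 rose and 4 fell. Their share of all signal, which needs no scaling, was 1.26% against 1.08%. With 7SL RNA left out of the total, the share was lower after irradiation, by 0.489 percentage points (exact permutation adjusted p = 0.0397).

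Hepatocyte transcripts had the largest rises of any list, 24 of 25 past the threshold with a median of 6.66. With the 9 compared libraries scaled and fitted alone, 1 of the 25 passed. The ranked genes at the top of the comparison were Fga, Serpina1d, Serpina1c, Ces1c, Apob and Alb. All were transcripts known from liver, at 7.81 to 7.38. The groups overlapped for each of the 25 transcripts, and in each of them irradiated replicate 3 lay below the highest sham. Fga, the fibrinogen alpha chain, stood at 12839, 13342 and 704 against 0, 8.16 and 1732 (lowest, median and highest sham). With irradiated replicate 3 alone none of the 25 passed, and with the hepatocyte covariate none passed either, which follows from its construction. Gstt1, a glutathione transferase, stood at 2680, 1242 and 837 against at most 157 and passed in every one of these fits, at 6.73 ± 1.20, 5.98 and 4.08. Of the endothelial and fibroblast markers 4 of 13 rose: Pecam1, which platelets also express, stood at 12557, 10105 and 12754 against 3377 to 4750, and Kdr, the VEGF receptor that liver endothelium also holds, at 443, 386 and 171 against 51.6 to 109 (adjusted p = 0.0409, and 0.81 with the hepatocyte covariate). The part of the hepatocyte signal in other rises was not tested. 

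The acute response on day 3 was set beside that of mice which had received 2.8 Gy over 3 days at a variable dose rate, called VarDR in the labels (6 libraries), each against 6 shams of its own arm and day. The difference of the 2 responses passed for 529 genes (2.50%), 138 in which the acute response was more positive and 391 in which it was more negative. The most negative differences past the threshold were those of red cell genes. Alas2 was at -1.71 after VarDR exposure and -8.01 after acute exposure, a difference of -6.30 ± 0.52 (adjusted p = 5.7e-15). Of the haemoglobin genes 6 of 9, of the red cell membrane genes 13 of 19 and of the late reticulocyte genes 14 of 23 had a more negative acute response. B cell markers also differed, 22 of 26 more negative, with Fcer2a at -4.20 against -1.05 (difference -3.15, adjusted p = 1.3e-08). For MHC class II genes it was 9 of 11.

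For p53 targets, 29 of 31 differences between the exposures did not pass, which does not show that the responses were alike. Cdkn1a rose by 3.89 and 3.24, a difference of 0.65 ± 0.91, Phlda3 by 2.92 and 2.72 (0.20 ± 0.41) and Ccng1 by 1.15 and 1.55 (-0.40 ± 0.18). Gadd45a and Btg2 were the 2 targets that differed: Gadd45a was at -2.74 after acute exposure and -0.78 after VarDR (difference -1.97, adjusted p = 0.033), and Btg2 at -0.67 and 0.38 (difference -1.05, adjusted p = 0.00065). Of the NF-kB genes, Nfkb2, Relb and Birc3 had more negative acute responses, with differences of -0.92, -0.99 and -0.81 (adjusted p = 0.0034, 0.012 and 0.043). Ccr7 and Cd8b1 of T cells did so as well, at -1.67 and -1.73 (adjusted p = 0.00027 and 0.014). None of 29 platelet markers and none of 24 NK and cytotoxic genes passed this test, with median differences of 0.46 and 0.54. Among genes past the threshold, the 4 with the most positive difference, Ugt1a9, Hgd, Me1 and Gstt1, are genes of liver metabolism that were highest in irradiated replicates 1 and 2; without these replicates 158 genes passed, 9 more positive and 149 more negative.

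**Figure D5:**
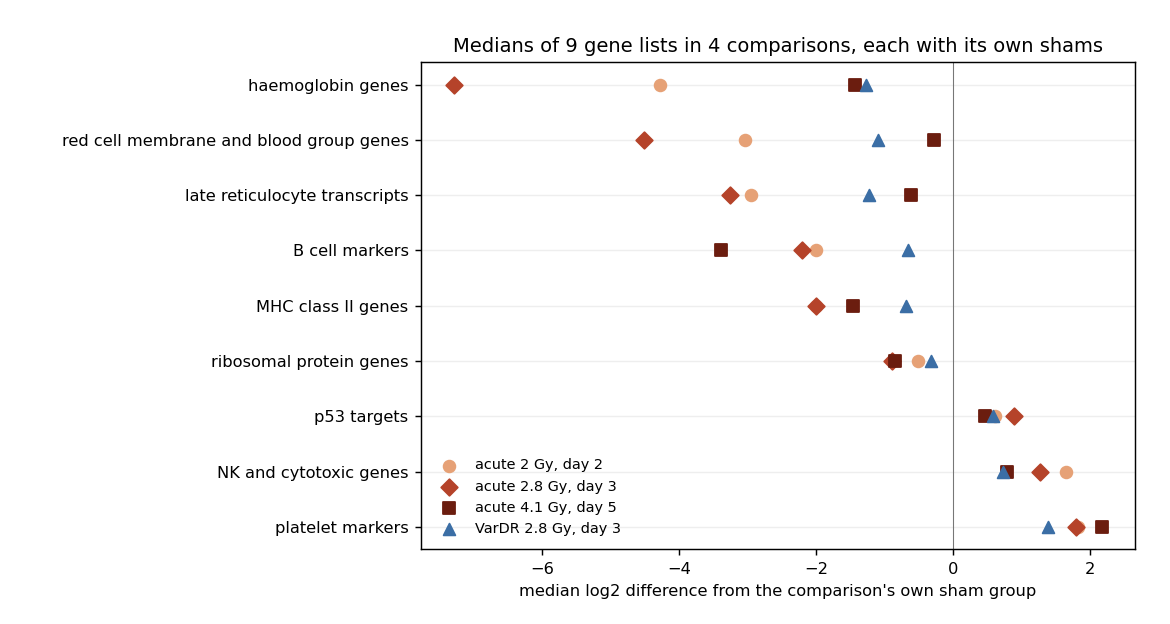
Median log2 difference of 9 gene lists from the shams of the same day and arm, for acute exposure on days 2, 3 and 5 and VarDR exposure on day 3. Haemoglobin genes had their lowest median, -7.29, on acute day 3, against -4.28 on day 2, -1.44 on day 5 and -1.28 after VarDR exposure, while B cell markers were lowest on acute day 5, at -3.38.

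Within the acute arm, mice given 2 Gy were bled on day 2 and mice given 4.1 Gy on day 5 (6 libraries each, with 6 shams each), so dose and day change together and cannot be told apart. Against day 2, 11 genes differed (0.0521%), all lower on day 3. Alas2 was at -4.85 on day 2 and -8.01 on day 3 (difference -3.16, adjusted p = 0.000468), and Hbb-bs, Hbq1a, Hba-a1 and Hba-a2 differed by -3.56, -3.42, -3.42 and -3.28. With irradiated replicate 3 alone this comparison rests on 1 irradiated library. Alas2 was then at -8.33 against the day 3 shams, a value that does not test the difference from day 2. By day 5 red cell genes stood closer to their shams: Alas2 was at -1.73 (difference from day 3 of 6.28 ± 0.52), Bpgm at -1.38 and Slc4a1 at 0.19. Of the 352 genes that differed between days 3 and 5 (1.67%), 322 were higher on day 5, among them 14 of the 19 red cell membrane genes, 17 of the 23 late reticulocyte genes and 7 of the 9 haemoglobin genes.

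Rsad2, Isg15 and Ube2c were also closer to their shams on day 5, with -5.34, -3.91 and -5.42 on day 3 and -0.42, -0.13 and -0.49 on day 5 (differences of 4.93, 3.78 and 4.93, all past the threshold). B cell markers went the other way, 13 of 26 lower on day 5 than on day 3 and none higher: Pax5 was at -2.39 on day 3 and -3.89 on day 5, and Bank1 at -2.06 and -3.55 (differences of -1.50 and -1.48, adjusted p = 0.0409 and 0.0022). Fcer2a and Ighd differed by -1.46 and -1.21 (adjusted p = 0.0312 and 0.0372). For Cdkn1a, Phlda3 and Ccng1 the day 5 responses of 2.99, 2.89 and 1.20 did not differ past the threshold from those of day 3 (differences -0.90 ± 0.91, -0.03 ± 0.41 and 0.06 ± 0.18).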

How the data were processed

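Whole-blood RNA of 80 mice in 14 groups was sequenced, and 9 libraries are the subject here. Tools named in the submitters' processing notes, with no roles given, are kallisto 0.44.0, bcl2fastq 2.19, DESeq2 and sleuth, and the build is GRCm38. The deposited values are normalized signal per gene symbol, not whole numbers; reads could not be recovered from them, so no count model was used, and the depth behind a value is unknown. Of 82 value columns, 2 match no sample and were left out, as were 26 rows that hold a date in place of a symbol (at most 0.410% of a column total).

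Each column was divided by the median of its ratios to the geometric gene means, taken over 11349 genes detected in every library. Genes at 10 or more in at least 3 libraries (21124) were tested on log2(value + 1) with limma 3.58.1 in R 4.3.3, with 14 group means over all 80 libraries, mean-variance trend and robust moderation, and Benjamini-Hochberg adjustment over all genes tested. Fold changes on this scale understate those of low genes. Shares were tested by exact two-sided permutation. Unless a share is named, every adjusted p is from limma. On simulated data the fit recovered 43.3%, 68.7% and 87.9% of genes changed 2-fold, 2.83-fold and 4-fold. None of these had the wrong sign, and 3.62% of its calls were unchanged genes. The simulated noise was independent between libraries, with the same spread in every library for a gene. Few genes were changed, all of higher level, and the hepatocyte signal of irradiated replicates 1 and 2 was not simulated. These rates describe the fit under those settings and not the real comparison.

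Members and gene lists were chosen with earlier results of these data known. The naming rule took the 12 largest rises and falls, every p53 target and haemoglobin gene, up to 4 members per direction of each other list and the 4 extremes of each difference, 272 genes; the text names a subset picked after values were seen. Alternatives were other scalings, filters, pseudocounts, library weights, the compared groups alone, a hepatocyte covariate, each library left out and, added after the hepatocyte shares were seen, irradiated replicates 1 and 2 left out. Coordinates are GENCODE gene bounds on GRCm38.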

Additional observations from a re-analysis of the deposited data

Results flagged for a closer look

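Among 207 sets of 6 sham values, 10 (4.83%) held a sham far from the other 5. The sets come from the same 6 libraries and are not independent, and the cause was not tested. Sham replicate 5 had a Ccng1 value of 1802, a Bax value of 196 and an H2-Eb2 value of 160. Sham replicate 6 stood apart for Dcxr at 3.59, for Hp at 821 and for mt-Nd6, listed at 0. The others were Ddit4l in sham replicate 3 at 11.5, Iglc1 in sham replicate 2 at 1235, Zbp1 in sham replicate 1 at 255 and Rps27rt in sham replicate 4 at 3.32.

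The acute and VarDR responses on day 3 differed, by limma's test of the difference, by 9.48 on the log2 scale for Ugt1a9, 8.26 for Hgd, 7.53 for Me1 and 7.002 for Gstt1. Differences in the other direction were -6.85 for Hba-a1, -6.71 for Hbb-bs, -6.57 for Hba-a2 and -6.44 for Hbb-bt. Between the acute responses on day 3 and day 2 they were -3.56 for Hbb-bs, -3.42 for Hbq1a, -3.42 for Hba-a1 and -3.28 for Hba-a2. From day 3 to day 5 the response was higher by 6.91 for Hbb-bt, 6.74 for Apol11b, 6.48 for Bpgm and 6.37 for Hba-a1. It was lower for Rps27rt at -7.87, Cobll1 at -1.96, Pax5 at -1.50 and Bank1 at -1.48.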

How the results depend on the processing

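Against 4337 genes past the threshold, library weights gave 7995 (4963 higher, 3032 lower), values as deposited 12317 (11716 and 601), irradiated replicate 3 alone 1388, and leaving out each library 2621 to 4621, lowest without irradiated replicate 1 and 2761 without replicate 2. Quantile normalization changed the split to 1844 higher and 2334 lower. The 529 genes that differed from the VarDR response became 158 with irradiated replicate 3 alone and 320 to 677 with each library left out (320 without irradiated replicate 1, 352 without replicate 2). The 11 genes that differed from day 2 became 20 with the compared groups only, 33 after quantile normalization, 0 with irradiated replicate 3 alone and 7 to 11 with each library left out, 7 without irradiated replicate 3. The 352 genes that differed between days 3 and 5 became 587, 184 with irradiated replicate 3 alone, and 248 to 372.

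With 7SL RNA left out of the total, the differences in share were 0.0684 percentage points for mitochondrial mRNAs, -0.00813 for mitochondrial ribosomal RNA and -0.489 for ribosomal protein genes. With each library left out they were -5.94 to -5.14 for haemoglobin, -28.1 to -25.2 for 7SL RNA, 0.694 to 0.947 for mitochondrial ribosomal RNA, 0.0864 to 0.225 for mitochondrial mRNAs, 0.146 to 0.229 for ribosomal protein genes and 1.39 to 2.80 for hepatocyte transcripts. With 2 irradiated libraries the smallest exact permutation p is 0.0357, before adjustment. Signs changed for Perp (-0.75 with the hepatocyte covariate, -0.14 with irradiated replicate 3 alone), Irf4 (0.022 with irradiated replicate 3 alone), Orm1 (-0.21 with the covariate) and Cobll1 (-0.038 with irradiated replicate 3 alone), and the cause was not tested. Of 185 named genes past the threshold, 96 passed under every alternative other than the values as deposited, and 128 with each library left out. The values as deposited were not part of that count. Parp1, S1pr1 and Nfkb2 are among the 96 and had no call there. No paired analysis was possible because the labels give no replicate numbers. The 3 irradiated libraries limit the precision of every rise. Irradiated replicate 3, at 0.185%, also held a larger share of hepatocyte signal than any sham. In rescaled units its hepatocyte transcripts summed to 33641, below the highest sham at 59140.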

Other observations

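Some gene groups lay outside the comparisons above. Of 20 antioxidant genes under NRF2, 9 rose and 2 fell (2 and 1 with irradiated replicate 3 alone, 4 and 3 with the hepatocyte covariate); the largest fall was Ftl1, the ferritin light chain that stores iron, at -2.88. Of 15 toll-like receptor genes, 6 rose and 1 fell, but none rose with irradiated replicate 3 alone and 3 rose after quantile normalization. Of 18 genes of the circadian clock 7 rose and none fell, with a median of 0.79. None of these clock genes passed with irradiated replicate 3 alone, and 2 did with the hepatocyte covariate.

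Of 155 snoRNA genes tested 20 fell (12.9%) and none rose, and of 72 snRNA genes 19 fell (26.4%) and none rose, against 8.72% lower and 11.8% higher among all genes, with medians of -0.48 and -0.88. Of 1380 lincRNA genes 71 rose (5.14%) and 36 fell (2.61%). In 271 genes tested, all 6 shams were listed at 0 and at least 1 irradiated library was above 0, so no fold is given for them.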
